A study of Mus musculus with 10 samples.

Results

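The colony-stimulating factors and their receptors were followed across RNA-seq libraries of Ly6G+ cells from infarcted mouse heart and from blood. The genes were taken by name: the 3 ligand genes Csf1, Csf2 and Csf3 and the 5 receptor genes Csf1r, Csf2ra, Csf2rb, Csf2rb2 and Csf3r, together 8 of 28185 genes listed. Male C57Bl/6J mice, aged 12 to 16 weeks, underwent permanent ligation of the left coronary artery. Animals of the MSC groups received syngeneic mouse bone marrow mesenchymal stromal cells (MSC) under the skin, at 3 sites away from the heart, with 1000000 cells each. Ly6G+ cells were pulled down with antibody-coated magnetic beads at day 3 after ligation, from the digested left ventricle below the ligature and from blood. The 4 groups were MI (heart, no MSC; 3 libraries), MI + MSC (heart, MSC; 3 libraries), Blood (no MSC; 2 libraries) and Blood + MSC (MSC; 2 libraries), and every animal, controls included, had an infarct. The methods take the single animal as the unit of in vivo experiments, but the labels tie no library to an animal, so it is not given whether heart and blood libraries share animals.

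M-CSF (Csf1) signals through the receptor tyrosine kinase CSF1R and keeps monocytes and macrophages alive, GM-CSF (Csf2) signals through a private alpha chain (Csf2ra) and the common beta chain (Csf2rb), and G-CSF (Csf3) signals through CSF3R and drives the making and release of neutrophils. Mice carry a further beta chain, Csf2rb2, which serves the interleukin-3 receptor. The GM-CSF and G-CSF receptors have no kinase of their own and act through JAK kinases and STAT proteins, whose targets include the feedback inhibitors of the SOCS and CISH family. In the infarcted heart these factors are known for mobilising neutrophils and monocytes and for shaping the macrophages that follow them.

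The libraries differed in depth and in the levels of cell type markers. Between 148594 (MI 13) and 8602711 (Blood + MSC 24) reads fell on genes, a 57.9-fold range, and Blood 21 had 268860. Normalized counts are reads divided by the size factor of the library, and 1 read was worth 8.40 normalized counts in MI 13 and 0.168 in Blood + MSC 24. Of 15 neutrophil markers, 14 had a read in MI 13 and all had one in the other 9 libraries, but their summed normalized counts ran from 2731 to 8890.3 (MI), 4149 to 17153 (MI + MSC), 41947 to 47744 (Blood) and 12638 to 19716 (Blood + MSC). Ly6g itself had 2 to 35 reads in the 6 cardiac libraries and 28 to 992 in the 4 blood libraries. In normalized counts this was 4.75 to 26.9 in the heart and 41.2 to 644.5 in blood, without overlap. All 15 monocyte and macrophage markers had a read in every library except Blood 21, where 14 did, with sums of 3866 to 16864 in the heart and 6748 to 11248 in blood. Cardiomyocyte markers summed to 3138 to 24249.7 in the heart and to 14.3 to 63.6 in blood. Platelet markers summed to 25605 in Blood 21, against 1098 in Blood 22, 591 to 702 in Blood + MSC and 462 to 1753 in the heart. Erythroid markers summed to 480 in Blood 21 and 9467 in Blood 22, so the 2 Blood libraries differed from each other in platelet and erythroid transcripts. The Ly6G+ fractions thus held transcripts of other cells, and in such bulk samples fewer cells of a type and less RNA per cell cannot be told apart.

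A pair of these ligand genes and a pair of these receptor genes have marked sequence features. Those of the receptor pair bear on how their reads were assigned, and a link between those of the ligand pair and their read counts was not tested. Csf2 (chromosome 11, 54138097 to 54140493, minus strand, GRCm39; 4 exons) and Csf3 (chromosome 11, 98592089 to 98594458, plus strand; 5 exons) end in 3′ untranslated regions rich in the pentamer ATTTA, the core of the AU-rich element that marks short-lived cytokine mRNAs. The 317 bases of Csf2 held 9 pentamers (overlaps counted, sense strand), 28.4 per kilobase, and the 672 bases of Csf3 held 6, or 8.93 per kilobase. The average over 16921 coding genes was 1.88 per kilobase. Csf1 held 4 in 2111 bases, Csf1r 3 in 2983, Csf2ra 1 in 1047, and Csf2rb, Csf2rb2 and Csf3r held 0. The overlapping nonamer TTATTTATT occurred 4 times in Csf2 and 0 times in Csf3, and 9.24% of the regions compared held at least 1. The densest stretch of each ligand is printed, with the pentamers in capitals, bases 230 to 259 of the untranslated region for Csf2 and 24 to 53 for Csf3.
Csf2: tttttaaatATTTATTTATTTATTTATTTA
Csf3: gatagtttATTTAtctctATTTAatATTTA

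The beta chain genes lie on chromosome 15 on opposite strands, Csf2rb at 78209952 to 78238047 (plus) and Csf2rb2 at 78166707 to 78189921 (minus), with 20030 bases between them. Their coding sequences, 2691 and 2637 bases, were 95.2% identical over the ungapped alignment, with 126 mismatches and 66 gap columns. Of all 50-base windows of the Csf2rb transcript, 18.9% occurred unchanged in Csf2rb2, as did 7.16% of the 100-base windows and 3.58% of the 150-base windows. A read that lies wholly in such a window cannot be assigned to either gene, so the separate values of both genes carry this uncertainty. The 90-base coding stretch below shows where reads can be told apart (coding bases 308 to 397 of Csf2rb and 311 to 400 of Csf2rb2), with the 16 bases that differ in capitals.
Csf2rb: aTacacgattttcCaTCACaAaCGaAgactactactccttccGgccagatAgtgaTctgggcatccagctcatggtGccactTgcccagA
Csf2rb2: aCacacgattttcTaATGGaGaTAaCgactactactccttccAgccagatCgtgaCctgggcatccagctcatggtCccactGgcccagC

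The stretches before both starts were also alike. The 250 bases before the start of each canonical transcript were compared. In these, 215 ungapped positions aligned with 14 mismatches (93.5% identity), spanning positions -250 to -36 of Csf2rb and -217 to -1 of Csf2rb2. Both held the letters GAGGAA, the core bound by the myeloid factor PU.1, at aligned positions on the minus strand, which 23.3% of 17888 coding promoters of this length held on either strand. Csf2rb held it again at -6, beside TTNNGNAA, a C/EBP-type motif, at -27. Both of these lie outside the aligned stretch, and 35.3% of promoters held the C/EBP letters. Csf3r held the C/EBP letters at -158 and no GAGGAA. The 30-base stretches (GRCm39) are printed 5′ to 3′ in the direction of transcription, with the motifs in capitals, at chr15:78209982-78210011, chr15:78210160-78210189, chr15:78190067-78190096 (minus strand) and chr4:125918150-125918179. All positions count from the canonical transcript start. For Csf2rb and Csf3r that start lies inside the annotated gene span, and both Csf2rb stretches fall within the span of Csf2rb. A match in letters shows no binding.
Csf2rb, distal: gtgtctgcTTCCTCcagaggagtcagggag
Csf2rb, proximal: tgcTTGCGAAAgggcactggcaacTTCCTC
Csf2rb2: gtgtctgcTTCCTCcagagaagtcagggag
Csf3r: gtcctgcttcgTTTTGAAAtaaacacttga

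Among the ligands, only Csf1 was transcribed at a level that could be tested. Csf1 (chromosome 3, 107648364 to 107667806) had 159.7, 312 and 460.1 normalized counts (MI 13, 19 and 20) and 825, 776 and 285 (MI + MSC 15, 17 and 18) in the heart. The blood libraries held 495 and 199 (Blood 21 and 22) and 499 and 304 (Blood + MSC 23 and 24). MI + MSC 15 and 17 lay above all other libraries and MI + MSC 18 lay within the range of MI, so the 2 cardiac groups overlapped, and so did heart and blood.

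Csf2 and Csf3 lay at the edge of detection. Csf2 had 0, 4 and 2 reads (MI), 2, 1 and 1 (MI + MSC), 0 and 0 (Blood), and 1 and 0 (Blood + MSC). Pooled over each group this was 1.42 reads per 1000000 gene reads (RPM) for MI (95% exact Poisson interval 0.520 to 3.08, counting error only), 0.820 for MI + MSC (0.224 to 2.10), 0 for Blood, where a count of 0 allows up to 0.930, and 0.0669 for Blood + MSC (0.00169 to 0.373). In the heart 5 of 6 libraries had a read, and in blood 1 of 4. Csf3 had 1, 1 and 0 reads (MI), 4, 4 and 4 (MI + MSC), 0 and 0 (Blood), and 4 and 6 (Blood + MSC). That was 0.472 RPM for MI (0.0572 to 1.71), 2.46 for MI + MSC (1.27 to 4.30), 0 for Blood (up to 0.930) and 0.669 for Blood + MSC (0.321 to 1.23). The Csf3 intervals of MI and MI + MSC overlapped, and normalized counts overlapped too, since the single read of MI 13 was worth 8.40 against 2.7 to 9.18 in MI + MSC. Of the groups compared, Csf3 in MI + MSC and in Blood + MSC was the 1 case in which the intervals did not overlap. In every MI + MSC library the normalized counts of Csf2 and Csf3 exceeded those of both Blood + MSC libraries, as did 33.8% of tested genes. Those of Csf3 in Blood + MSC exceeded the 0 of Blood, where 21% of tested genes were higher without overlap. A single read was worth 0.676 to 2.30 normalized counts in MI + MSC and 0.168 to 0.263 in Blood + MSC. In Blood 21 it was worth 7.07, above the 1.05 and 1.01 of Csf3 in Blood + MSC, so a 0 there cannot place Blood below them. Fits that kept low genes (limma without a filter, and DESeq2) called neither gene in any comparison, and Csf3 in MI + MSC against Blood + MSC stood at 2.15 by DESeq2 on all libraries (SE 1.66, adjusted p = 0.351). Both genes fell under the minimum mean of 10 normalized counts, so 6 of the 8 genes entered the tests, among 11549 genes.

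Csf3r, the G-CSF receptor (chromosome 4, 125918262 to 125938236, plus strand, 17 exons in the canonical transcript), had the highest normalized count of the receptor genes in 9 of 10 libraries, the exception being MI + MSC 18, where Csf1r had 718 and Csf3r 699.6. Of the 6 tested genes it also had the largest fold change between heart and blood, with and without MSC. The MI libraries had 555, 1130.4 and 1216 normalized counts, the MI + MSC libraries 2097, 2753 and 699.6. Blood reached 5695 and 9547, and Blood + MSC reached 7249 and 5757. The lowest blood library stood above the highest cardiac library. The mean was 967 ± 359.5 for MI (SD, n = 3), 1849.7 ± 1049 for MI + MSC (n = 3), 7621 ± 2724 for Blood (n = 2) and 6503 ± 1055 for Blood + MSC (n = 2).

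**Figure D1:**
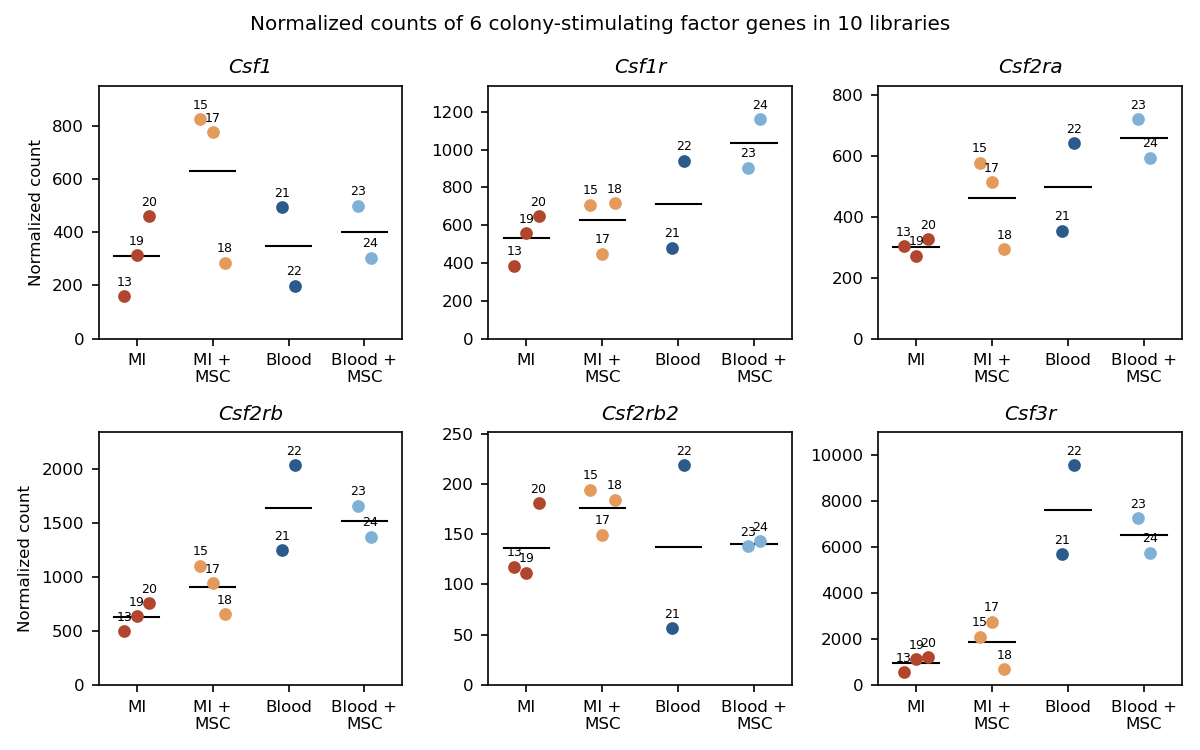
Normalized count (vertical axis, from 0) of the 6 tested genes in each library, grouped by heart or blood and MSC (horizontal axis); numbers are library numbers and bars are group means. Csf3r and Csf2rb in the 4 blood libraries lie above all 6 cardiac libraries, while the other 4 genes overlap between heart and blood.

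Csf2rb, the common beta chain, also separated heart from blood. Its normalized counts were 496, 633 and 756 for MI, 1104, 944 and 657 for MI + MSC, 1244 and 2029.7 for Blood, and 1657 and 1372 for Blood + MSC. All 4 blood libraries exceeded all 6 cardiac ones, so Csf3r and Csf2rb were the 2 of 6 tested genes that did not overlap and were lower in the heart, where 14% of all tested genes did the same. The alpha chain gene Csf2ra (chromosome 19, 61212395 to 61216892) had 303, 272 and 325 (MI), 577, 512 and 292 (MI + MSC), 353 and 641 (Blood), and 720.0 and 593 (Blood + MSC). Its MI libraries lay below every blood library, but MI + MSC 15 and 17 reached into the range of Blood.

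Csf2rb2 showed no such split. Its normalized counts were 118, 112 and 181 for MI, 194, 149 and 184 for MI + MSC, 56.5 and 218 for Blood, and 138 and 143 for Blood + MSC. Blood 21 and 22 held both the lowest and the highest value of all libraries, and the value of Blood 21 rested on 8 reads. Csf1r, the M-CSF receptor and a marker of monocytes and macrophages (chromosome 18, 61229714 to 61266535), had 387, 557 and 648 (MI), 709, 450.0 and 718 (MI + MSC), 480.4 and 942 (Blood), and 905 and 1163 (Blood + MSC). Blood + MSC lay above all cardiac libraries, and Blood 21 lay within their range. Between single groups, 3 of the 6 (Csf2ra, Csf2rb and Csf3r) had all MI values below all Blood values and 0 had them above, where 23.6% and 31.6% of all tested genes were. With MSC, 4 were lower in the heart (those and Csf1r) and 1, Csf2rb2, was higher, where 29.7% and 33.8% of all were. For MI + MSC against MI, 0 of 6 were set apart either way (7.05% of all higher, 9.6% lower), and likewise 0 of 6 between the blood groups (21% and 15.4%).

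Compared per kilobase of exon, the order of the levels was headed by Csf3r in all 10 libraries. The Csf3r level was 87.1 to 353 RPM per kilobase of exon in the heart and 588 to 974 in blood, which ranked it 76 to 301 among 17888 coding genes in the cardiac libraries and 12 to 51 in the blood libraries. In MI the mean levels then ran Csf2ra 77.3, Csf2rb 64.6, Csf1r 53.8, Csf1 39.2 and Csf2rb2 21.6. Only Csf3r, at 140.8, stood clear of its neighbour there, since the ranges of all other neighbours overlapped. In Blood the order was Csf3r 781, Csf2rb 118, Csf2ra 88.9, Csf1r 50.5, Csf1 31.0 and Csf2rb2 15.1, and again only the first gap exceeded the spread. Csf2ra stood above Csf2rb in 8 of 10 libraries by exon length but in 3 of 10 by the length of the longest transcript, so the order of these chains depended on the length used. By that length Csf3r led in 9 libraries, and Csf2ra led in MI 13.

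Ratios between receptor transcripts of one library do not depend on scaling, and they differed between heart and blood. The pairs were chosen after the values were seen and are given as a description. Csf3r over Csf1r, per exon length, was 2.07, 2.93 and 2.71 (MI), 4.27, 8.83 and 1.41 (MI + MSC), 17.1 and 14.6 (Blood), and 11.5 and 7.15 (Blood + MSC). MI + MSC 17 was the one cardiac library that reached the blood range. Csf3r over Csf2rb was 1.52 to 4.16 in the heart and 5.99 to 6.71 in blood. Csf2rb over Csf2rb2 was 2.32 to 4.12 in the heart (mean 3.22 ± 0.715, SD, n = 6) and 6.06 to 14.3 in blood (8.61 ± 3.89, n = 4), with no overlap between the sources. As a share of the 5 receptor transcripts per length, Csf3r made up 29.6% to 57.6% in the heart and 66.1% to 75.2% in blood, and Csf2rb2 made up 3.36% to 8.39% and 0.803% to 1.81%.

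**Figure D2:**
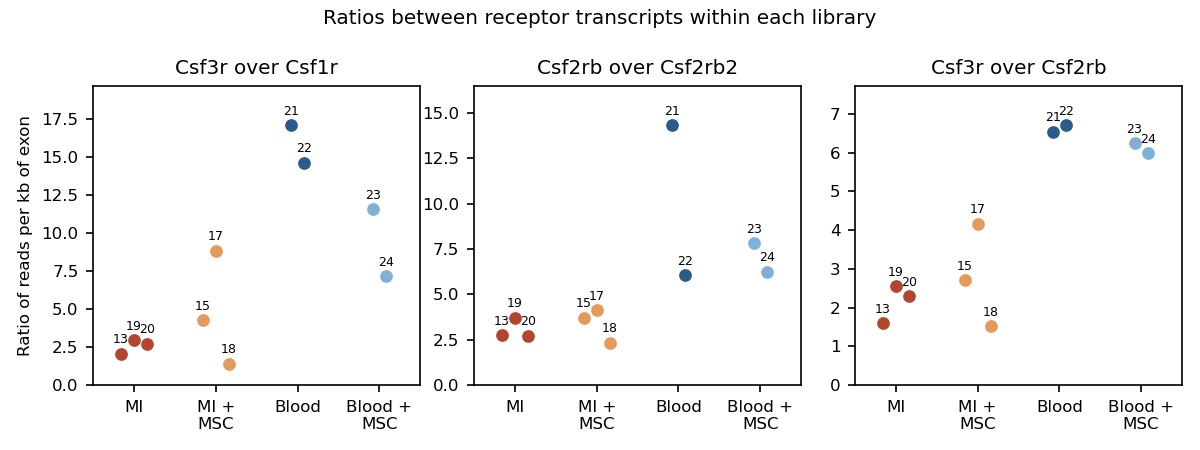
Ratio of reads per kilobase of exon (vertical axis, from 0) between 2 receptor genes in each library, by group (horizontal axis); numbers are library numbers. Csf3r over Csf2rb and Csf2rb over Csf2rb2 are higher in all 4 blood libraries than in all 6 cardiac libraries.

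Heart and blood were compared by limma on log2(normalized count + 2), with a gene called at a Benjamini-Hochberg adjusted p below 0.05 over all tested genes and a log2 fold change of at least 0.5. In MI against Blood, 2 of the 6 genes were called, both lower in the heart, against 13.5% of all tested genes called lower and 21.2% called higher. Csf3r fell by 3.01 on the log2 scale (SE 0.640, limma adjusted p = 0.00541), which was 0.124 of its blood level, and it was called under all 22 alternatives tried. Csf2rb fell by 1.36 (SE 0.39, limma adjusted p = 0.0210), and this call was lost under 4 of 23 alternatives. Leaving out Blood 22, which leaves 1 Blood library whose spread is assumed to be that of the other groups, gave -1.0 and an adjusted p of 0.120, and scaling by library size gave -0.83 and 0.0715. Csf2ra (-0.67), Csf1r (-0.37), Csf1 (-0.14) and Csf2rb2 (0.25) did not pass. The Csf2rb2 value turned with the library left out, being 1.21 without Blood 22 (limma adjusted p = 0.0219) and -0.70 without Blood 21.

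Heart and blood were also compared within the MSC groups. In MI + MSC against Blood + MSC, 0 of 6 genes were called by limma, against 5.85% of all tested genes called lower and 8.23% called higher, and Csf3r alone of the 6 had an unadjusted p below 0.05. Csf3r stood at -2.02 (SE 0.641, limma adjusted p = 0.0568). It was called under 10 of 22 alternatives, among them DESeq2 and edgeR on the recovered reads (edgeR quasi-likelihood adjusted p = 0.0228). Csf2rb stood at -0.77 (limma adjusted p = 0.201), Csf1r at -0.74 (0.229), Csf2ra at -0.56 (0.325), Csf1 at 0.54 and Csf2rb2 at 0.31. DESeq2 fitted on these 2 groups alone called 4 genes lower, adding Csf2rb, Csf1r and Csf2ra. That fit called 5398 of all genes in either direction, against 1627 by limma, so the added calls came with many more calls elsewhere. Across all tested genes the median log2 fold change was 0.15 in MI against Blood and 0.09 with MSC, and scaling by TMM moved these to -0.07 and -0.50.

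**Figure D3:**
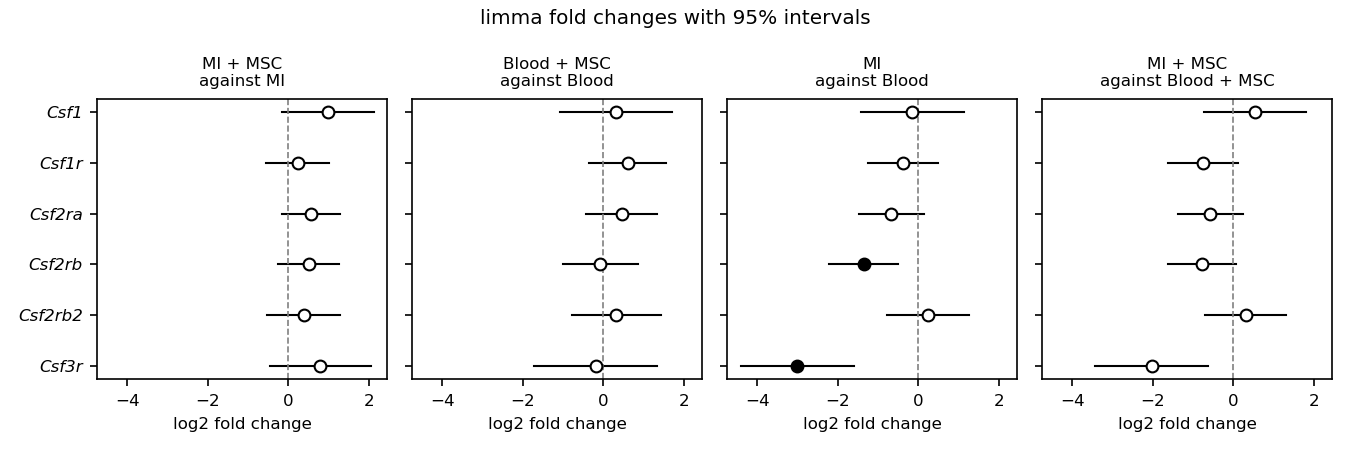
log2 fold change (horizontal axis) with its 95% interval from limma for the 6 tested genes in 4 comparisons; filled points were called. Csf3r at -3.01 and Csf2rb at -1.36 in MI against Blood are the 2 filled points. All intervals of MI + MSC against MI and of Blood + MSC against Blood cross 0. That of Csf3r in MI + MSC against Blood + MSC, -3.42 to -0.61, does not, though the gene was not called there.

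Like Csf3r, most neutrophil markers were lower in the heart than in blood, with medians of -3.12 without MSC and -2.11 with MSC. In the MSC comparisons the markers and Csf3r differed, with 0 called. The marker median was -0.84 in Blood + MSC against Blood, where Csf3r stood at -0.19. It was -0.01 in MI + MSC against MI, where Csf3r stood at 0.80. In MI against Blood 11 of the 15 neutrophil markers were called lower and 0 higher, where 13.5% and 21.2% of all tested genes were. In MI + MSC against Blood + MSC 4 were called lower and 1 higher, where 5.85% and 8.23% of all were. Per 100 normalized counts of summed neutrophil markers, a ratio chosen after the values were seen, Csf3r had 12.7 to 20.3 in the 6 cardiac libraries, 13.6 and 20 for Blood, and 36.8 and 45.6 for Blood + MSC. By this ratio the heart overlapped Blood and the Blood + MSC libraries lay above all others. Their neutrophil marker sums, 19716 and 12638, were below those of Blood while their Csf3r counts were within its range. Csf2rb had 5.50 to 18.2 per 100 in the heart, 2.96 and 4.25 for Blood, and 8.41 and 10.9 for Blood + MSC, so by this ratio both Blood libraries lay below the heart. Csf1r per 100 counts of monocyte and macrophage markers was 4.26 to 10 in the heart, 4.27 and 11.8 for Blood, and 13.4 and 13.7 for Blood + MSC. The part that cell content had in the differences between heart and blood was not tested.

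**Figure D4:**
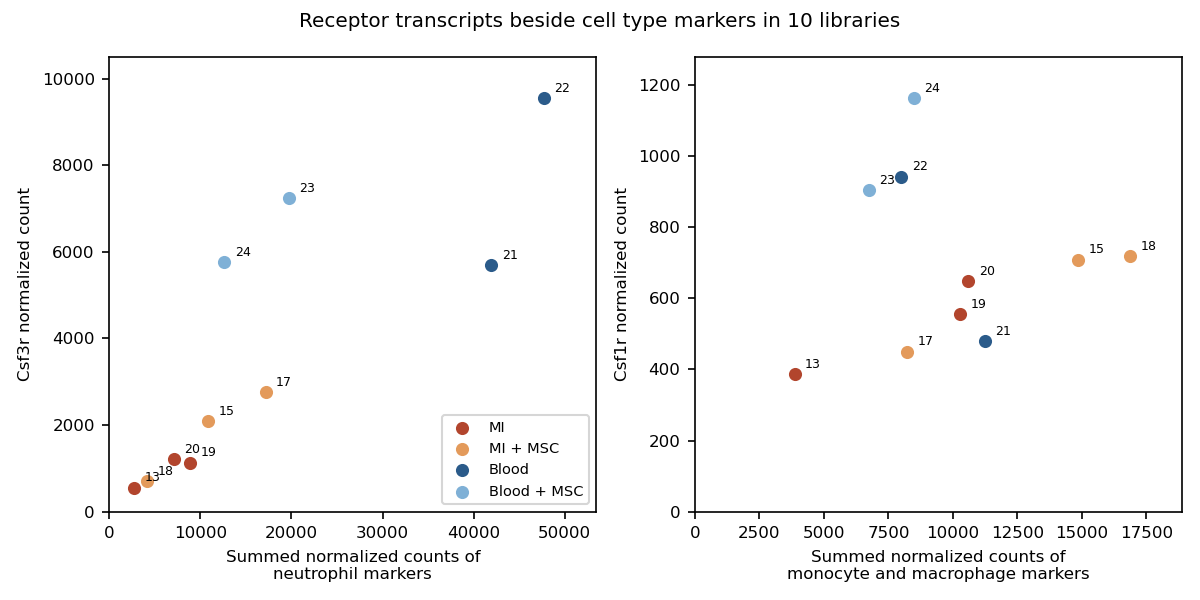
Normalized count of Csf3r against the summed normalized counts of 15 neutrophil markers (left) and of Csf1r against 15 monocyte and macrophage markers (right), with 1 point per library and both axes starting at 0. Csf3r is lower in every cardiac library than in any blood library, while the neutrophil sum of MI + MSC 17, 17153, lies between those of Blood + MSC, and the Blood + MSC libraries hold as much Csf3r as Blood at lower sums of 12638 and 19716.

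The effect of MSC was the question of the remaining comparisons, and limma with all libraries called 0 of the 6 genes in any of them. In MI + MSC against MI all 6 estimates were above 0, against a median of -0.01 over all tested genes. Csf1 had the largest, 0.99 (95% interval -0.15 to 2.13, limma adjusted p = 0.647), followed by Csf3r at 0.80 (-0.46 to 2.06), Csf2ra at 0.56 (-0.17 to 1.29), Csf2rb at 0.51 (-0.26 to 1.27), Csf2rb2 at 0.39 (-0.52 to 1.29) and Csf1r at 0.24 (-0.55 to 1.02). All 6 intervals include 0. They leave room for a rise of more than the called minimum in each gene, and those of Csf1r and Csf2rb2 also for a fall of more than it. These estimates stayed above 0 under all alternatives run, but their size depended on single libraries. Csf1r ranged from 0.027 (without MI 13) to 0.46 (without MI + MSC 17), Csf1 from 0.58 (without MI 13) to 1.49 (without MI + MSC 18), and Csf3r from 0.41 (without MI + MSC 17) to 1.39 (without MI + MSC 18). Cell markers differed in the same comparison, with 0 called. The monocyte and macrophage markers had a median of 0.75 and sums of 3866 to 10604 (MI) and 8238 to 16864 (MI + MSC). The median was -1.43 for cardiomyocyte markers, with sums of 8095 to 24249.7 and 3138 to 12602, -1.60 for endothelial markers and -0.01 for neutrophil markers. Their part in the 6 estimates was not tested. Limma called 0% of genes here, with 925 of 11549 at an unadjusted p below 0.05, and edgeR called 0, DESeq2 over all libraries 80 and voom with quality weights 261, with 0 of the 6 genes among them.

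In Blood + MSC against Blood limma again called 0% (848 genes at an unadjusted p below 0.05). The estimates were 0.61 for Csf1r, 0.46 for Csf2ra, 0.33 for Csf2rb2, 0.31 for Csf1, -0.08 for Csf2rb and -0.19 for Csf3r, against a median of 0.11. With Blood 22 left out, Csf2rb2 became a call at 1.29 (limma adjusted p = 0.0439), on the 8 reads of Blood 21, the 1 Blood library then left, whose spread is taken from the other groups. That fit called 1506 of 11549 genes, against 0 with all libraries. The difference of the MSC effect between heart and blood was tested as an interaction, which called 0% (838 genes at an unadjusted p below 0.05). It was 0.99 for Csf3r (SE 0.906, limma adjusted p = 0.702), 0.68 for Csf1, 0.58 for Csf2rb, 0.10 for Csf2ra, 0.06 for Csf2rb2 and -0.37 for Csf1r.

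Across the 10 libraries the tested genes fell into a tight pair and several loose ones. As a description over libraries that share 4 groups and unequal depth, Pearson's r of log2(normalized count + 2) was 0.97 for Csf2rb with Csf3r, 0.86 for Csf2rb with Csf2ra and 0.80 for Csf2ra with Csf3r. It was 0.12 for Csf2rb with its near copy Csf2rb2, and -0.06 for Csf1 with its receptor Csf1r. Among the 5601 genes that averaged 50 normalized counts or more, those most like Csf3r were Pfkfb4 (r = 0.99), Ccpg1, Alox5, Nfam1 and Siglece. Csf2rb was most like Was (0.99), Zfp740, Kcmf1, Ppp4r3b and Mmp9, a neutrophil granule protease gene. Csf1r was most like Ncstn (0.97), Man2b2, Ckb, Cox7b and Gars1, Csf1 like Zfp263 (0.96), Trib1, Slc20a1, Slc7a6os and Tnfrsf23, Csf2ra like Pgs1 (0.95), Siah1a, Rmnd5b, Stam and Fgd3, and Csf2rb2 like Ppid (0.94), Tbc1d22a, Eif2s2, Rpl22 and Rps20.

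The wider pathway was described from 10 lists of 109 genes, 99 of which were tested, covering other ligands and receptors, transducers, targets, and genes that act on the supply of the factors. In MI against Blood 15 of the 99 were called higher and 26 lower, where 21.2% and 13.5% of all tested genes were, with a median log2 fold change of -0.44 beside 0.15 over all genes. The listed kinases and phosphatases of receptor signalling were called lower in 10 of 14 cases and higher in 0, with a median of -1.51. Some of them, such as Ptprc, are not particular to these receptors. Ptprc, encoding the phosphatase CD45, stood at -2.77, the kinase gene Fes at -2.40 and Ptpn6, encoding the phosphatase SHP-1, at -2.38. Of the STATs, 2 of 5 were called lower, Stat5b at -1.74 (limma adjusted p = 0.00197) and Stat6 at -1.59. Stat5b, a transducer of GM-CSF and G-CSF signals, had 109 to 152 normalized counts (MI), 120.0 to 173 (MI + MSC) and 367 to 529 (both blood groups). The adaptor and PI3K, RAS and MAPK list had 6 of 20 lower and 0 higher, among them Tyrobp (-2.59) and Pik3cd (-1.91).

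The feedback inhibitors were called in both directions. Of 12, 4 were called higher and 3 lower in MI against Blood, where 21.2% and 13.5% of all tested genes were. Cish, a target of STAT5, had 50.4, 36.5 and 28.3 normalized counts (MI), 13.5, 32.1 and 17.6 (MI + MSC), 0 and 3.90 (Blood), and 3.15 and 2.36 (Blood + MSC), with no overlap between heart and blood. Its log2 fold change was 3.52 (SE 0.604, limma adjusted p = 0.00181), on a scale where the pseudocount sets the value against such low counts. Socs2, an inhibitor of the same family, stood at 2.86 and the MAPK phosphatase gene Dusp2 at 3.53. The Dusp2 call was lost under 3 of 22 alternatives, among them without Blood 21 (2.02). The survival and growth targets had 4 of 12 called higher, including Bcl2l1 (2.46), Bcl2a1d (2.29) and Pim3 (2.20), and 1 lower, Ccnd3. Of the lineage transcription factors 3 of 14 were called higher and 3 lower, including Cebpd (-2.40) and Cebpe (-2.26), a factor of late granulocyte maturation. The call of Cebpe was lost under 8 of 21 alternatives, among them without Blood 21, Blood 22, Blood + MSC 23 or Blood + MSC 24 (-2.30 to -2.22), and its value was -1.41 without MI 13. Cebpd lost its call without Blood 21 (-2.14). Of the monocyte and macrophage markers 4 of 15 were called higher and 1 lower here.

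The inducers, ligands and decay factors bear on the supply of the factors. The list of inducers of their production also held Nfkbia, Zfp36 and Zc3h12a, which are not inducers. Zfp36 and Zc3h12a were counted among the decay factors too. Of the 10 tested genes of this inducer list, 3 were called higher in MI than in Blood and 0 lower, a share near the 21.2% of all tested genes. They were Il1a (3.97), Il23a (3.39) and Tnf (2.40), and Tnf lost its call without Blood 22 (1.33). Interleukin-1 and TNF switch on Csf2 and Csf3 in many cell types. Kitl, encoding stem cell factor and the 1 tested gene of the other ligands, had 205 to 229 normalized counts (MI), 31.8 to 96.4 (MI + MSC) and 4.55 to 7.23 (both blood groups), a log2 fold change of 4.83. Of the decay factors that bind AU-rich and related elements, 1 of 9 was called, Rc3h2 (-1.08), a call lost under 4 of 22 alternatives. Of 4 tested other receptors, 0 were called, the lowest p being that of Il3ra (1.93, limma adjusted p = 0.0763). Endothelial markers summed to 2764 to 2997 normalized counts (MI), 702 to 1272 (MI + MSC), 142 to 1667 (Blood) and 88.0 to 95.3 (Blood + MSC), and their part in the Kitl difference was not tested.

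**Figure D5:**
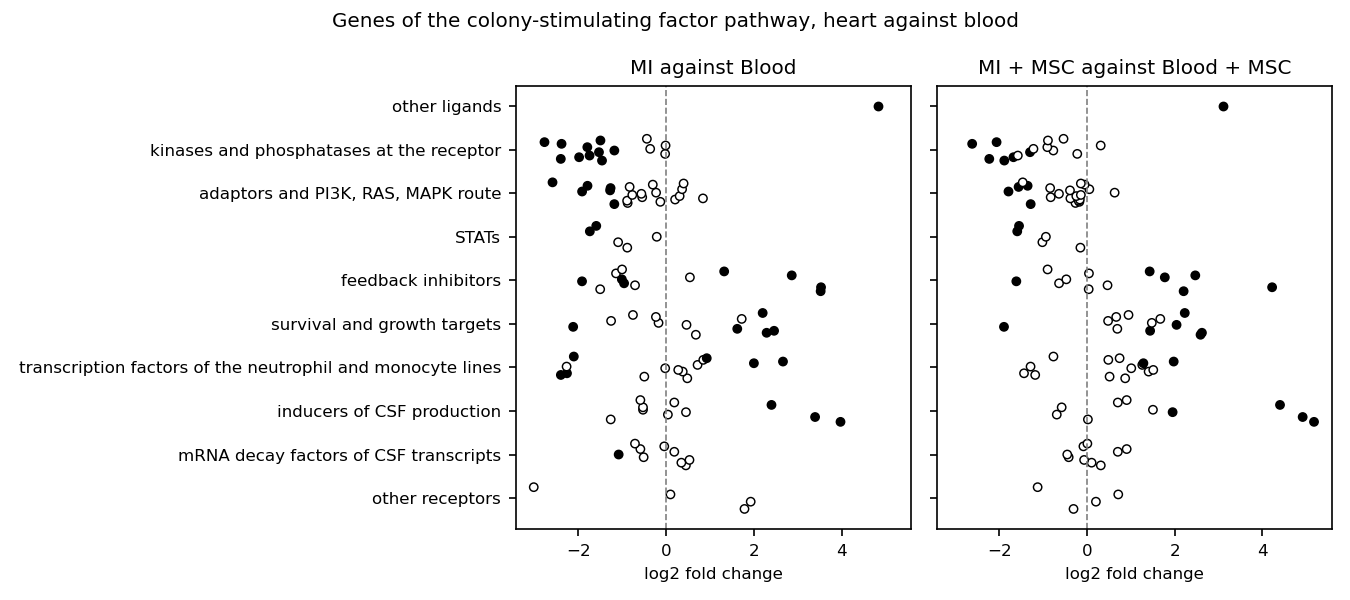
log2 fold change (horizontal axis) of 99 pathway genes in 10 lists (vertical axis), heart against blood, without MSC (left) and with MSC (right); filled points were called by limma. Kinases and phosphatases, adaptors and STATs are called only in the lower direction, while feedback inhibitors are called in both directions. The single gene of the other ligands is Kitl, at 4.83 without MSC.

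With MSC the pathway lists gave 17 of 99 called higher and 14 lower in MI + MSC against Blood + MSC, where 8.23% and 5.85% of all tested genes were, with a median of -0.14. Kinases and phosphatases had 6 of 14 lower, led by Ptpn6 (-2.61), and STATs had Stat5b (-1.59) and Stat6 (-1.55). Feedback inhibitors had 5 of 12 higher, led by Dusp2 (4.22), Socs2 (2.47) and Cish (2.20), and 1 lower. The Cish call was lost under 8 of 21 alternatives, among them each left-out library of MI + MSC and of Blood + MSC (1.88 to 2.45) and MI 19. Socs2 lost its call without MI + MSC 17, MI + MSC 18 or Blood + MSC 23 (1.79 to 2.48) and Dusp2 without either Blood + MSC library (3.78 and 4.66). Stat6 lost its call without MI + MSC 18 or either Blood + MSC library (-1.71 to -1.38), and Ptpn6 (-2.41) and Stat5b (-1.39) did so without Blood + MSC 23. The inducer list, which also holds genes that are not inducers, had 4 of 10 higher, with Il1a at 5.17 and Tnf at 4.40. In MI + MSC against MI limma called 0 of the 99, and 0 in blood. The lowest p in the heart belonged to Bcl2a1d, an anti-apoptotic gene, at 2.06 (limma adjusted p = 0.340), and Il1a stood at 2.92 (0.340), Kitl at -1.70 (0.380) and Dusp2 at 2.36 (0.567). DESeq2 on all libraries and voom with quality weights called these 4 genes, the first with values of 1.89, 2.61, -1.61 and 1.94, and DESeq2 on the groups compared called Bcl2a1d and Il1a. For Il1a the 16.8, 64.4 and 84.4 normalized counts of MI lay below the 445, 498 and 206 of MI + MSC.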

How the data were processed

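Ly6G+ cells of 10 samples were profiled by stranded, paired-end RNA-seq after depletion of ribosomal RNA. According to the submitters' notes and the methods, the authors trimmed reads (Trimmomatic), removed duplicates (Picard), aligned to GRCm39 (STAR), counted per gene (featureCounts), removed mitochondrial reads and divided counts by DESeq2 size factors. The deposited signal is this normalized count for 28185 genes, and both deposited tables held the same 281850 values. Dividing each library by its smallest step gave whole reads for 100% of values (tolerance 0.01 reads).

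The 11549 genes averaging 10 normalized counts or more were tested with limma 3.58.1 (trend; R 4.3.3) on log2(value + 2), with 1 mean per group, all 10 libraries and Benjamini-Hochberg adjustment. Fold changes on this scale understate changes of low genes. A gene was called where the adjusted p was below 0.05 and the log2 fold change at least 0.5 in size, or on the adjusted p alone for the interaction. edgeR 4.0.16 and DESeq2 1.42.0 were run on the recovered reads as alternatives, with other pseudocounts, filters, scalings and left-out libraries. Intervals of pooled reads are 95% exact Poisson intervals, a count of 0 was given the limit of 3 reads, and both cover counting error only. Levels per length used all exons of GENCODE, which matched 27906 of the gene identifiers, and starts and 3′ untranslated regions came from its canonical transcripts on the GRCm39 sequence.

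The text names all 8 genes, up to 3 called genes with the largest change per pathway list and comparison (or the gene with the lowest p where none was called), and the 5 genes most like each tested gene. Some genes picked by this rule are not reported here. Il3, Il5, Thpo and Il17a were not analysed here, and Il34, Flt3l, Il5ra, Pim2, Gfi1 and Il6 fell under the minimum. The genes and lists were chosen with earlier results of these data known.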

Additional observations from a re-analysis of the deposited data

How the results depend on the processing

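No paired analysis was possible because the labels tie no library to an animal. The tests of heart against blood treat the libraries as independent, which is not known. Csf3r in MI against Blood kept its call under all 22 alternatives, and in MI + MSC against MI the 6 genes kept their direction and stayed uncalled in every alternative. Of 658 recomputed fold changes of these genes, 588 kept direction and side of the threshold, 49 changed sign, 17 became calls and 4 lost the call. For pathway genes named in the text, 1057 kept both, 74 lost the call, 10 gained one and 0 changed sign. The cause of calls lost or gained was not tested, also where a fit holds fewer libraries.

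Scaling moved the median over all genes. For MI + MSC against MI it was -0.01 as deposited, -0.14 by library size and 0.25 by TMM, for Blood + MSC against Blood 0.11, 0.37 and 0.72, for MI against Blood 0.15, 0.63 and -0.07, for MI + MSC against Blood + MSC 0.09, 0.17 and -0.50, and for the interaction -0.12, -0.52 and -0.48. By library size, Csf1 (0.38) and Csf1r (0.15) turned in MI against Blood, Csf2rb (0.22) and Csf3r (0.11) in Blood + MSC against Blood, and Csf2ra (-0.32) and Csf2rb2 (-0.37) in the interaction. By TMM, Csf1 (-0.077) and Csf2rb2 (-0.30) turned in MI + MSC against Blood + MSC, Csf2rb (0.60) and Csf3r (0.48) in Blood + MSC against Blood, and Csf2ra (-0.29) and Csf2rb2 (-0.33) in the interaction.

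Csf2rb2 turned in Blood + MSC against Blood under edgeR (-0.093), DESeq2 on all libraries (-0.10) or on the groups compared (-0.0065), voom with quality weights (-0.018) and without MI 13 and Blood 21 (-0.63). In MI against Blood it turned under the same 5 (-0.19, -0.11, -0.072, -0.15 and -0.61). DESeq2 on the groups compared gave -0.23 in MI + MSC against Blood + MSC. Summing the reads of Csf2rb and Csf2rb2 gave -0.052 in Blood + MSC against Blood, -1.18 in MI against Blood (limma adjusted p = 0.0393) and -0.64 in MI + MSC against Blood + MSC. Voom gave 0.17 for Csf2rb and 0.051 for Csf3r in Blood + MSC against Blood. Without MI 13 and Blood 21, Csf1 was 0.92 in MI against Blood and -0.38 in the interaction.

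With each library left out in turn, Csf1 ranged from -0.34 to 0.96 in Blood + MSC against Blood and from -0.79 to 0.51 in MI against Blood. Csf1r ranged from -0.86 to 0.11 in MI against Blood and from -0.85 to 0.12 in the interaction. Csf2ra ranged from -0.32 to 0.53 in the interaction. In Blood + MSC against Blood, Csf2rb ranged from -0.43 to 0.28, Csf2rb2 from -0.63 to 1.29 and Csf3r from -0.56 to 0.18. Csf2rb2 ranged from -0.70 to 1.21 in MI against Blood and from -0.90 to 1.01 in the interaction.

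In MI against Blood 2 of the 6 genes were called lower, and 1 by library size, by TMM and by limma on the groups compared. Leaving out libraries gave 1 to 2 lower and 0 to 1 higher, and 0 to 1 higher in Blood + MSC against Blood, the exceptions being Csf2rb and Csf2rb2 without Blood 22. In MI + MSC against Blood + MSC the count of 0 became 1 (Csf3r) by library size, edgeR, DESeq2 on all libraries, voom, limma on the groups compared and a minimum mean of 20, 4 by DESeq2 on the groups compared, 3 without MI 13 and Blood 21, and 0 to 1 with libraries left out (1 without MI 13 or Blood 22).

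Counts over all genes moved more. In MI against Blood 4008 calls became 2233 (DESeq2, groups compared), 2488 (TMM), 1700 (limma, groups compared) and 2590 (voom). In MI + MSC against Blood + MSC 1627 became 3526 (DESeq2), 5398 (DESeq2, groups compared), 3693 (edgeR), 4010 (limma, groups compared), 4884 (voom), 4764 (without MI 13 and Blood 21) and 266 to 2704 with libraries left out (266 without Blood + MSC 23, 508 without Blood + MSC 24, 719 without MI + MSC 18, 961 without MI + MSC 15, 2640 without MI 13, 2703 without Blood 22 and 2704 without Blood 21). In MI + MSC against MI, 0 became 80 and 28 (DESeq2, all libraries and groups compared) and 261 (voom). In Blood + MSC against Blood, 0 became 165 and 41 (DESeq2), 3 (without MI 13 and Blood 21) and 0 to 1506 with libraries left out, the highest without Blood 22. The interaction went from 0 to 17 (DESeq2) and 0 to 1095 with libraries left out, the highest without Blood 22. Csf2ra exceeded Csf2rb in 3 libraries by longest transcript and in 8 by exon length. The depth of MI 13 and Blood 21 limits what low genes can show, and Csf2 and Csf3 had at most 6 reads in a library.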
